A study of Mus musculus with 8 samples.

Results

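The transcripts of 10 peptide hormone and neuropeptide genes were followed in the striatum of mice that had lost Bcl11b from their projection neurons: Avp, Oxt, Trh, Crh, Hcrt, Pmch, Gal, Nts, Cartpt and Cck. They are 10 of the 55376 rows of the count table, taken by symbol, and they were chosen by what earlier work on the same libraries had measured in the same contrast. Their values are therefore given as a description, without a test. RNA was sequenced from the striatum of 4 female D9-Cre-Bcl11b mice and 4 female Cre-negative mice, all 4 months of age and of the strain C57Bl/129S2/Sv, with 1 library per mouse. Both groups carried the floxed allele, spelled tm1.1_Lead in the sample names, on both chromosomes. The D9-Cre-Bcl11b mice additionally carried Cre recombinase under a regulatory element of Ppp1r1b, the gene of DARPP-32. The deletion was thereby directed at medium spiny neurons (MSNs) after birth. Whether interneurons, glia and the neurons of incoming axons kept the gene was not tested. The left striatum was taken whole, and fewer cells of a type and less RNA per cell cannot be told apart in such tissue.

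Peptide hormones are made as longer precursors, cut by convertases inside dense-core granules, amidated in many cases, and released onto G-protein-coupled receptors. Vasopressin (Avp) and oxytocin (Oxt) are made mainly by magnocellular neurons of the hypothalamus and released from the posterior pituitary. Thyrotropin-releasing hormone (Trh) and corticotropin-releasing hormone (Crh) control the anterior pituitary, and orexin (Hcrt) and melanin-concentrating hormone (Pmch) come from the lateral hypothalamus. Galanin (Gal), neurotensin (Nts), CART (Cartpt) and cholecystokinin (Cck) are used more widely in the brain, and neurotensin is known in striatal neurons for its interplay with dopamine.

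The libraries held 51536311 to 70247098 counts in D9-Cre-Bcl11b mice and 47059264 to 50213377 counts in Cre-negative mice, so that 1 count was worth 0.0144 to 0.0209 CPM (counts scaled by library size). Bcl11b itself, the deleted gene, had 10071, 7943, 9757 and 7414 counts in D9-Cre-Bcl11b mice, against 23706, 17573, 22379 and 13413 counts in Cre-negative mice, a log2 fold change of -1.43 (SE 0.13, edgeR adjusted p = 7.06e-05). The summed level of 10 MSN markers was 5580 to 6090 CPM in D9-Cre-Bcl11b mice and 6480 to 7370 CPM in Cre-negative mice. Of the 10, 5 passed the test as lower, where 3.91% of all genes tested were lower. The summed level of 10 cortical excitatory neuron markers was 74.4, 71.4, 108 and 197 CPM in D9-Cre-Bcl11b mice and 80.7, 72.5, 82.2 and 192 CPM in Cre-negative mice, so that mouse 4 of each group stood apart. The 7 choroid plexus markers summed to 9860 CPM in D9-Cre-Bcl11b mouse 2, and to 35.4 to 1880 CPM in the other 7 mice. None of the astrocyte, oligodendrocyte, microglia, endothelial, thalamic or interneuron markers passed the test. Groups did not overlap, in either direction, for 22% of all genes tested. Of the 11 interneuron markers, 2, named after their values were seen, were higher in D9-Cre-Bcl11b mice without overlap. These were Th (log2 fold change 1.30, SE 0.32, edgeR adjusted p = 0.018) and Slc18a3 (log2 fold change 0.61, SE 0.15, edgeR adjusted p = 0.018).

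The 10 genes fell into 3 sets. Avp and Nts were far higher in every D9-Cre-Bcl11b mouse than in any Cre-negative mouse. Cck, Cartpt, Trh, Crh and Oxt had enough counts to be fitted, and their groups overlapped. Hcrt, Pmch and Gal were at or near the limit of detection in both groups and were left out by the filter on low counts. Of the 7 genes fitted, 2 were past the threshold (edgeR quasi-likelihood test, Benjamini-Hochberg adjusted p under 0.01) as higher, where 4.87% of all 22173 genes tested were higher, and 0 as lower, where 3.91% of all genes were lower. The count of lower members was also 0 at an unadjusted p under 0.05, with DESeq2 and with limma-voom. Groups did not overlap for 2 of the 7, where they did not overlap for 22% of all genes tested. Since the genes were chosen on this contrast, nothing is read from these shares. The median log2 fold change of the 7 was 0.51, and that of all genes tested was -0.0037.

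**Figure D1:**
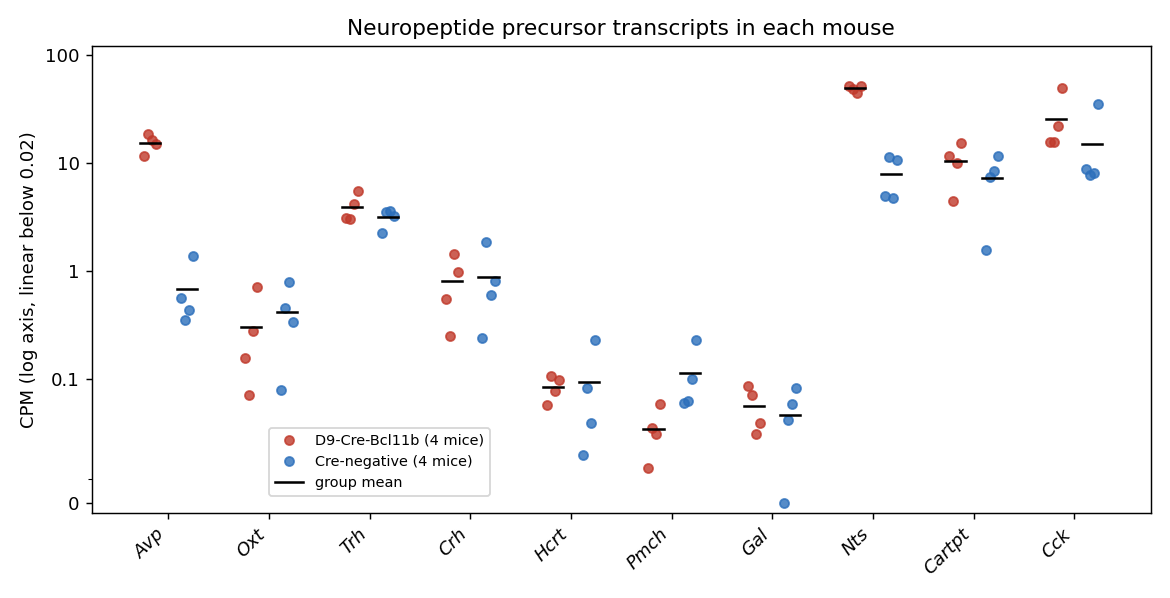
Level of each of the 10 peptide genes in each mouse, in CPM on a log axis that is linear below 0.02, with D9-Cre-Bcl11b mice left in red, Cre-negative mice right in blue and a bar at each group mean. Avp and Nts separate the groups with no overlap, at means of 15.2 and 48.7 CPM in D9-Cre-Bcl11b mice against 0.685 and 7.88 CPM in Cre-negative mice, whereas Hcrt, Pmch and Gal lie at a few counts per library.

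Avp, the precursor of the antidiuretic hormone vasopressin, had 802, 1027, 1054 and 757 counts in D9-Cre-Bcl11b mice, against 28, 17, 22 and 66 counts in Cre-negative mice. Scaled to library size, these were 11.5, 18.3, 16.3 and 14.8 CPM in D9-Cre-Bcl11b mice and 0.563, 0.356, 0.438 and 1.38 CPM in Cre-negative mice. The lowest D9-Cre-Bcl11b mouse was thus well above the highest Cre-negative mouse, and Cre-negative mouse 4, which also had the highest cortical marker sum of its group, was the highest of the controls. The means were 15.2 ± 2.86 CPM in D9-Cre-Bcl11b mice and 0.685 ± 0.473 CPM in Cre-negative mice (SD, n = 4 each), a ratio of 22.3 and a fitted log2 fold change of 4.48 (SE 0.36). Leaving out each mouse in turn gave log2 fold changes between 4.26 and 5.07. Without mouse 4 of both groups, a choice made after the data were seen, the means were 15.4 CPM in D9-Cre-Bcl11b mice and 0.452 CPM in Cre-negative mice.

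Oxt, the precursor of oxytocin, is the nearest gene to Avp and did not share its pattern. In the GRCm38 annotation Avp lies on the minus strand at chr2:130580620-130582554 and Oxt on the plus strand at chr2:130576173-130577054, with 3565 bases between their facing 3′ ends. Oxt had 11, 4, 18 and 36 counts in D9-Cre-Bcl11b mice, against 4, 22, 40 and 16 counts in Cre-negative mice. These corresponded to 0.303 ± 0.281 CPM in D9-Cre-Bcl11b mice and 0.418 ± 0.298 CPM in Cre-negative mice (SD, n = 4 each), and the groups overlapped over nearly their whole range. The log2 fold change was -0.49 (SE 0.70), and it ran between -1.28 without D9-Cre-Bcl11b mouse 4 and 0.036 without Cre-negative mouse 3, so that no direction can be given.

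The 250 bases before the annotated start of each gene are shown for this pair of neighbours, of which Avp was high in the deletion mice and Oxt was not, as RefSeq gives them for GRCm38.p6. The Avp window is chr2:130582589-130582838 on the minus strand and the Oxt window is chr2:130575919-130576168 on the plus strand. Capitals mark matches, on either strand, to the AP-1 letters TGANTCA, the cyclic AMP response element (CRE) TGACGTCA, its half-site TGACG, or TATAAA. The half-site is contained in the full element.
Avp: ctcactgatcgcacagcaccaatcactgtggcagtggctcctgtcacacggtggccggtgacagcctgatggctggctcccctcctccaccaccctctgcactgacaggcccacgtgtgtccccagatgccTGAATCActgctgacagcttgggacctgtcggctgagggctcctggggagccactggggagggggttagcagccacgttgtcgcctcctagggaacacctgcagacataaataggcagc
Oxt: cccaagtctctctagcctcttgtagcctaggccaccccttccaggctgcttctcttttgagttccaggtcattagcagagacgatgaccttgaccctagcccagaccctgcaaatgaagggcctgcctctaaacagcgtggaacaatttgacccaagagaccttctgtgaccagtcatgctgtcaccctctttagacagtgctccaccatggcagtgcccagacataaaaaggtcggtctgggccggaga
The Avp window held 1 match to TGANTCA, with the letters TGAATCA, at position -119 from the RefSeq start, and no CRE, half-site or TATAAA. It also held 3 matches to the E-box letters CANNTG, at positions -139, -127 and -24, the first of which was CACGTG. The Oxt window held none of the capitalised motifs and 1 E-box, CAAATG, at -140. Among 27025 RefSeq promoter windows of this length, TGANTCA was found in 6.87% and CANNTG in 66%. The half-site was found in 17.9%, TATAAA in 13% and the full CRE in 1.62%. A match is a description of the letters and not of a bound site.

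Genes around Avp were examined next, to see whether the difference extended along the chromosome. Within 200 kb of the start of Avp the annotation places 20 other genes, of which 14 were tested, and 2 were higher, 2 were lower and 10 did not pass. Over all genes tested, 4.87% were higher and 3.91% lower. The flanking genes gave small values. Mrps26, a mitochondrial ribosomal protein on the Oxt side, had a log2 fold change of 0.21 (SE 0.05, edgeR adjusted p = 0.0101), which passed with DESeq2 (adjusted p = 4.73e-04) and with a filter of 1 CPM in 4 mice (edgeR adjusted p = 0.00796), and Ubox5, a ubiquitin ligase on the Avp side, had -0.08 (SE 0.09, edgeR adjusted p = 0.637). Slc4a11, a membrane transporter of the bicarbonate transporter family, fell to 0.847, 0.854, 0.869 and 1.02 CPM in D9-Cre-Bcl11b mice, against 4.86, 3.98, 9.0 and 2.74 CPM in Cre-negative mice. Its log2 fold change was -2.52 (SE 0.33, edgeR adjusted p = 5.38e-04), opposite in sign to that of Avp. Lzts3, a postsynaptic density protein, was also lower, at 339 to 364 CPM in D9-Cre-Bcl11b mice and 496 to 692 CPM in Cre-negative mice (log2 fold change -0.78, SE 0.10, edgeR adjusted p = 3.89e-04). Ddrgk1, a component of the UFM1 conjugation machinery, was higher by 0.40 (SE 0.06, edgeR adjusted p = 9.33e-04). Vps16, a subunit of vesicle tethering complexes that overlaps Pced1a on the opposite strand, was higher by 0.24 (SE 0.05, edgeR adjusted p = 0.00992), a call that was kept without Cre-negative mouse 1 and lost without each of the other 7 mice (adjusted p 0.0121 to 0.0368). The median log2 fold change of the 14 genes was 0.0031.

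**Figure D2:**
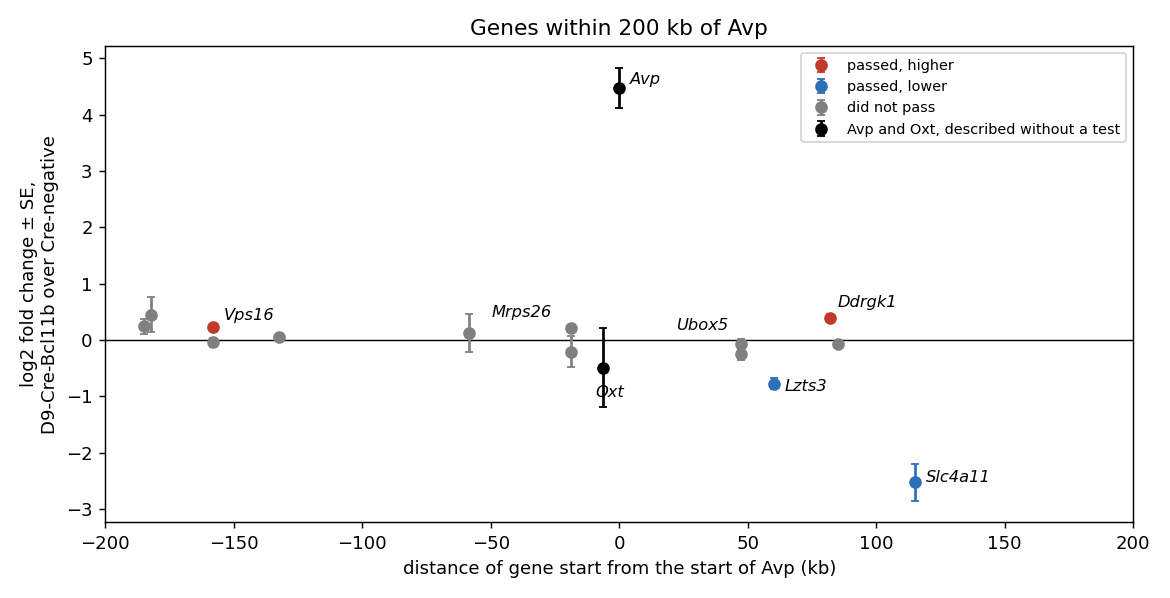
Log2 fold change with its SE (D9-Cre-Bcl11b over Cre-negative) against the distance in kb of each gene's start from the start of Avp, for the 14 neighbours tested and for Avp and Oxt. Avp at 4.48 stands above all other genes of the window, Slc4a11 at -2.52 is the lowest, and Oxt, Mrps26 and Ubox5 lie between -0.49 and 0.21.

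The hypothalamic releasing hormones were at low levels in both groups. Trh had 213, 170, 266 and 279 counts in D9-Cre-Bcl11b mice and 112, 167, 182 and 155 counts in Cre-negative mice, which were 3.92 ± 1.15 CPM in D9-Cre-Bcl11b mice and 3.15 ± 0.622 CPM in Cre-negative mice (SD, n = 4 each). The log2 fold change of Trh was 0.31 (SE 0.23), and 0.11 without D9-Cre-Bcl11b mouse 4, the highest of all, or 0.18 without Cre-negative mouse 1, the lowest. Crh had 38, 14, 93 and 50 counts in D9-Cre-Bcl11b mice and 12, 88, 30 and 39 counts in Cre-negative mice. The Crh range within each group was wider than the distance between the means of 0.804 ± 0.521 CPM in D9-Cre-Bcl11b mice and 0.874 ± 0.687 CPM in Cre-negative mice (SD, n = 4 each). Its log2 fold change of -0.12 (SE 0.60) turned to 0.55 without Cre-negative mouse 2, the mouse with 88 counts, to 0.18 without D9-Cre-Bcl11b mouse 2 and to 0.037 without D9-Cre-Bcl11b mouse 1.

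Of the lateral hypothalamic peptides and galanin only a few reads were found. Hcrt, the orexin precursor, had 4, 6, 5 and 5 counts in D9-Cre-Bcl11b mice and 1, 4, 2 and 11 counts in Cre-negative mice. Pmch, the precursor of melanin-concentrating hormone, had 1, 2, 2 and 3 counts in D9-Cre-Bcl11b mice and 3, 3, 5 and 11 counts in Cre-negative mice. Gal had 6, 4, 2 and 2 counts in D9-Cre-Bcl11b mice and 0, 2, 3 and 4 counts in Cre-negative mice. A count of 0 allows up to 3 counts in a library, which is 0.0431 to 0.0628 CPM, an interval of counting error only, and most of these values were at that limit or a few times above it. Pmch was nominally apart between groups, at no more than 0.0588 CPM in D9-Cre-Bcl11b mice and no less than 0.0603 CPM in Cre-negative mice, but it overlaps Parpbp on the opposite strand, and the strand setting of the counting is not given in the sources used here. A difference in these 3 genes was not detectable at this depth.

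Nts, the precursor of neurotensin, was the other gene with a clear separation. It had 3562, 2689, 2868 and 2626 counts in D9-Cre-Bcl11b mice, against 243, 541, 235 and 507 counts in Cre-negative mice. The levels were 51.1, 47.9, 44.5 and 51.4 CPM in D9-Cre-Bcl11b mice and 4.88, 11.3, 4.68 and 10.6 CPM in Cre-negative mice. The 4 deletion mice were close to each other, whereas the control mice formed a lower pair (mice 1 and 3) and a higher pair (mice 2 and 4). The means were 48.7 ± 3.26 CPM in D9-Cre-Bcl11b mice and 7.88 ± 3.59 CPM in Cre-negative mice (SD, n = 4 each), a ratio of 6.19 and a log2 fold change of 2.63 (SE 0.26). Leaving out each mouse in turn gave 2.45 to 2.86. The 250 bases before the start of Nts are shown because it was the second gene that was high in the deletion mice. The RefSeq window is chr10:102490419-102490668 on the minus strand of GRCm38.p6, with capitals as above.
Nts: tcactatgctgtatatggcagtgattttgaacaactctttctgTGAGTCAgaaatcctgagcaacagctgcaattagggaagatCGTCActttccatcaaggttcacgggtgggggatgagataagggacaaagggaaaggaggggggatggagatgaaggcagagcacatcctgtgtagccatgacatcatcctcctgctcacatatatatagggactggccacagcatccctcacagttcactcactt
This window held 1 AP-1 match, TGAGTCA, at position -207 and 1 CRE half-site, CGTCA on the strand shown, at -166, together with 1 E-box, CAGCTG, at -186. Among the 9 members with a RefSeq promoter entry, which are all members but Crh, TGANTCA was found in the windows of Avp, Nts and Pmch. The letters were TGAATCA in Avp and TGAGTCA in Nts and Pmch. A full CRE was found only in the window of Cartpt. A link between these letters and the levels was not tested.

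Cartpt, the precursor of the CART peptides that are induced by psychostimulants in the striatum, had 802, 250, 644 and 776 counts in D9-Cre-Bcl11b mice and 78, 351, 423 and 553 counts in Cre-negative mice. The lowest value was in Cre-negative mouse 1, and the next lowest was in D9-Cre-Bcl11b mouse 2, so that the groups overlapped. The means were 10.3 ± 4.46 CPM in D9-Cre-Bcl11b mice and 7.23 ± 4.18 CPM in Cre-negative mice (SD, n = 4 each), with a log2 fold change of 0.51 (SE 0.49). It was 0.26 without D9-Cre-Bcl11b mouse 4, 0.17 without Cre-negative mouse 1 and 0.84 without Cre-negative mouse 4.

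Cck, the precursor of cholecystokinin and a transcript abundant in cortical neurons, had 1084, 869, 1411 and 2528 counts in D9-Cre-Bcl11b mice and 433, 369, 405 and 1674 counts in Cre-negative mice. At 15.6, 15.5, 21.9 and 49.5 CPM in D9-Cre-Bcl11b mice and 8.70, 7.72, 8.06 and 35.1 CPM in Cre-negative mice, mouse 4 was the highest of each group, and Cre-negative mouse 4 alone made the groups overlap. These are the mice with cortical marker sums of 197 CPM (D9-Cre-Bcl11b) and 192 CPM (Cre-negative), and the part of cortical RNA in the level of Cck was not tested. Of the 10 cortical markers, 1 (Cux2) passed the test between groups, as higher, where 4.87% of all genes tested were higher. None of the 10 was at 0 in all mice. Over all 8 mice the means were 25.6 ± 16.2 CPM in D9-Cre-Bcl11b mice and 14.9 ± 13.5 CPM in Cre-negative mice (SD, n = 4 each), with a log2 fold change of 0.78 (SE 0.53). Without mouse 4 of both groups, chosen after the data were seen, the means were 17.6 CPM in D9-Cre-Bcl11b mice and 8.16 CPM in Cre-negative mice, with a log2 fold change of 1.12 (SE 0.15). Leaving out D9-Cre-Bcl11b mouse 4 alone gave 0.25, and leaving out Cre-negative mouse 4 alone gave 1.65. Among the deletion mice the highest Avp level (18.3 CPM) was in mouse 2, which had the lowest cortical sum and the highest choroid plexus sum of its group. Among the Cre-negative mice it was in mouse 4 (1.38 CPM), which had the highest cortical sum. The part of cortical or choroid plexus RNA in the level of Avp was not tested.

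**Figure D3:**
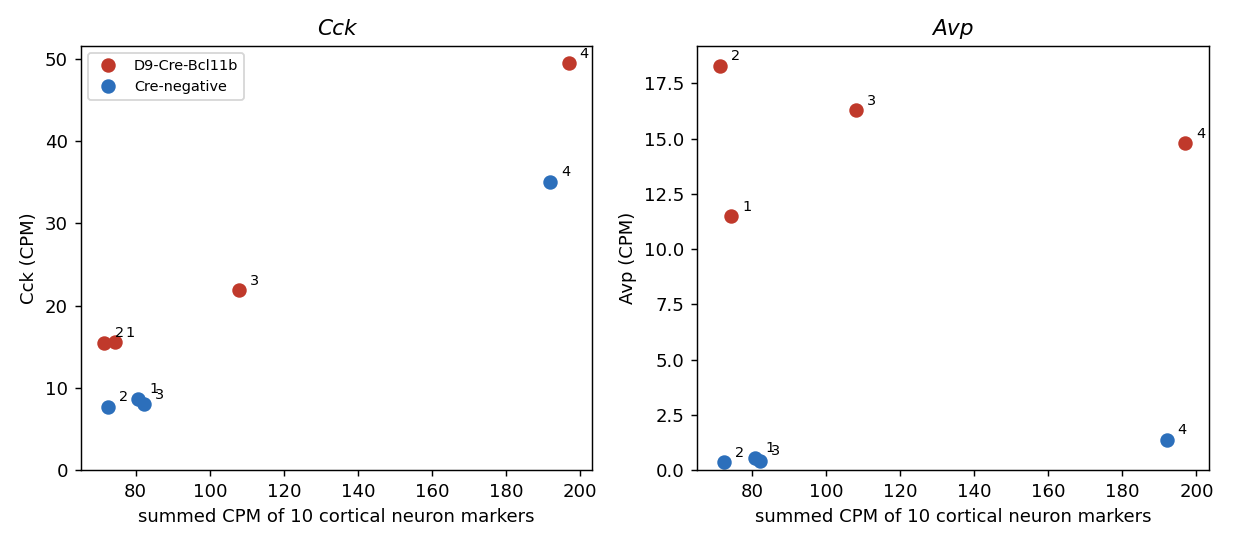
Level of Cck (left) and Avp (right) in CPM against the summed CPM of 10 cortical excitatory neuron markers, 1 point per mouse with its number, D9-Cre-Bcl11b in red and Cre-negative in blue. Mouse 4 of each group lies at the far right and has the highest Cck of its group (49.5 CPM in D9-Cre-Bcl11b and 35.1 CPM in Cre-negative). Avp is at 11.5 to 18.3 CPM in D9-Cre-Bcl11b mice and at 0.356 to 1.38 CPM in Cre-negative mice.

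**Figure D4:**
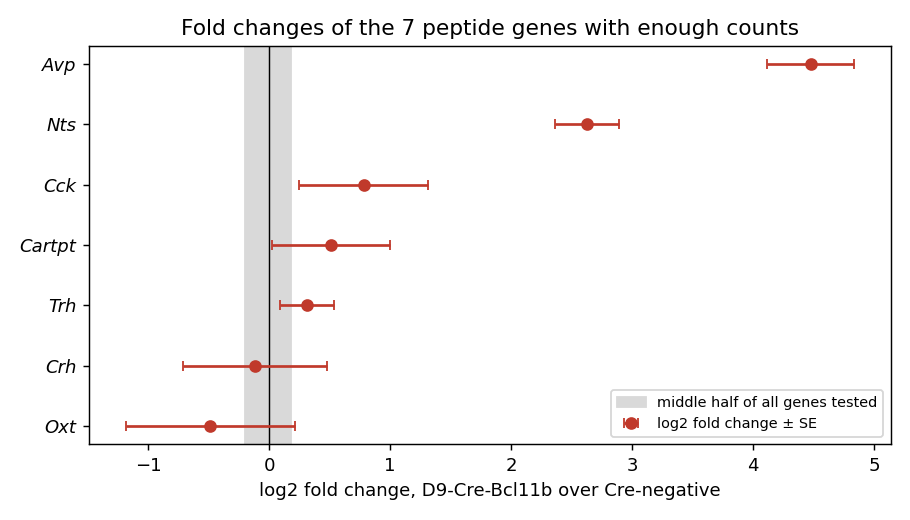
Log2 fold change with its SE (D9-Cre-Bcl11b over Cre-negative) for the 7 peptide genes with enough counts, beside a grey band that spans the quartiles of all genes tested, -0.20 to 0.18. Avp (4.48) and Nts (2.63) lie far outside the band, and the SE bars of Cartpt, Trh, Crh and Oxt reach into it.

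Compared per kilobase of exon, the order of the 10 genes differed between the groups. In D9-Cre-Bcl11b mice Nts was first at 39.0 ± 2.61 CPM per kb, followed by Avp at 26.4 ± 4.95, Cck at 19.6 ± 12.4, Cartpt at 8.06 ± 3.5 and Trh at 2.83 ± 0.831 (SD, n = 4). Crh, Oxt, Hcrt, Gal and Pmch were below 1 CPM per kb in this group. Only the ranges of Nts and Avp, and of Trh and Crh, did not overlap among neighbours in this order. In Cre-negative mice Cck was first at 11.4 ± 10.3 CPM per kb, then Nts at 6.31 ± 2.87, Cartpt at 5.66 ± 3.27 and Trh at 2.28 ± 0.449, and Avp was the fifth at 1.19 ± 0.819 (SD, n = 4). All neighbours in the Cre-negative order overlapped.

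The receptors and binding proteins of these peptides were tested as a list of 20 genes. Like the members, this list and those below were chosen with earlier results of these data known. Their counts of calls are therefore a description. Of the 15 with enough counts, 4 were higher, 0 were lower and 11 did not pass, with a median log2 fold change of 0.32. The shares over all genes tested were 4.87% higher and 3.91% lower. At an unadjusted p under 0.05 the edgeR counts were 9 higher and 1 lower (Hcrtr2, named after its values were seen, log2 fold change -0.85). The share of all genes at that unadjusted level was not computed. DESeq2 called 5 of the list higher and 0 lower, and limma-voom 4 higher and 0 lower. Of all 22173 genes, DESeq2 called 1747 higher and 1566 lower, and limma-voom 1107 higher and 849 lower. Hcrtr1, the orexin receptor type OX1, rose most of the 4. It had 4.58, 3.92, 6.28 and 6.27 CPM in D9-Cre-Bcl11b mice, against 0.201, 0.293, 0.279 and 0.545 CPM in Cre-negative mice, and a log2 fold change of 3.99 (SE 0.30, edgeR adjusted p = 2.03e-05). Its ligand gene Hcrt remained at 4 to 6 counts in those D9-Cre-Bcl11b libraries. Cckbr, the brain cholecystokinin receptor, had 25.3, 19.6, 20.5 and 24.9 CPM in D9-Cre-Bcl11b mice, against 6.92, 10.1, 6.85 and 11.4 CPM in Cre-negative mice, so that the groups were apart (log2 fold change 1.36, SE 0.17, edgeR adjusted p = 4.27e-04). Crhr1, the main receptor of corticotropin-releasing hormone, had 27.0, 21.2, 26.9 and 27.4 CPM in D9-Cre-Bcl11b mice, against 6.11, 13.7, 6.07 and 15.2 CPM in Cre-negative mice (log2 fold change 1.32, SE 0.28, edgeR adjusted p = 0.00804). The Crhr1 call was kept without D9-Cre-Bcl11b mouse 2 and without Cre-negative mouse 4, and lost without each of the other 6 mice (adjusted p 0.0101 to 0.0244). Ntsr2, a neurotensin receptor known in glia, rose by a small and even step, at 76.8, 77.2, 79.6 and 75 CPM in D9-Cre-Bcl11b mice and 63.5, 60.0, 63.8 and 60.5 CPM in Cre-negative mice (log2 fold change 0.32, SE 0.04, edgeR adjusted p = 9.07e-04).

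The vasopressin receptors were hardly seen. Avpr1a had 18 counts summed over the D9-Cre-Bcl11b mice and 22 over the Cre-negative mice, Avpr1b had 0 counts in D9-Cre-Bcl11b mice and 4 in Cre-negative mice, and Avpr2 had 35 counts in D9-Cre-Bcl11b mice and 31 in Cre-negative mice, so that none was tested. These 3 genes and the oxytocin receptor Oxtr were named after their values were seen. Oxtr had 2.05, 2.10, 2.11 and 3.13 CPM in D9-Cre-Bcl11b mice and 0.844, 0.628, 0.976 and 1.68 CPM in Cre-negative mice, without overlap, and missed the threshold (log2 fold change 1.18, SE 0.29, edgeR adjusted p = 0.0168).

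**Figure D5:**
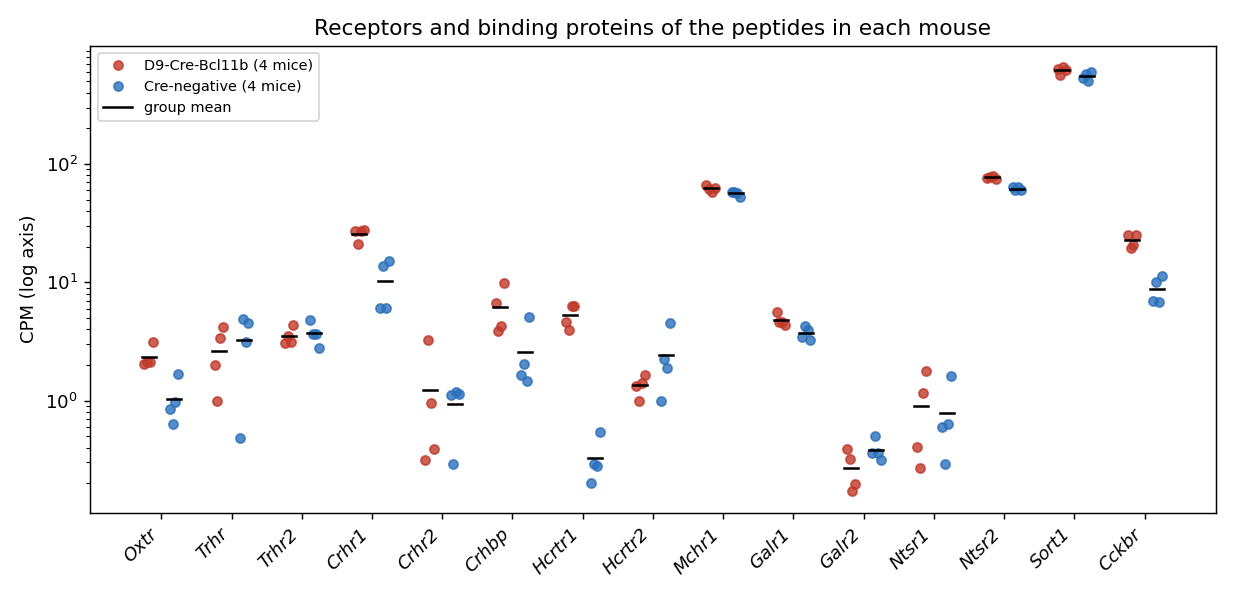
Level of the 15 tested receptors and binding proteins of the peptides in each mouse, in CPM on a log axis, with D9-Cre-Bcl11b mice left in red, Cre-negative mice right in blue and a bar at each group mean. Hcrtr1 shows the widest gap, with 3.92 to 6.28 CPM in D9-Cre-Bcl11b mice and 0.201 to 0.545 CPM in Cre-negative mice, and Ntsr2 a narrow one.

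The enzymes and granule proteins that turn precursors into peptides were tested next. Of 15 processing and granule genes, all tested, 2 were higher, 1 was lower and 12 did not pass, with a median log2 fold change of 0.16. Among all genes tested, 4.87% were higher and 3.91% lower. Pam, the enzyme that amidates the ends of vasopressin, oxytocin and cholecystokinin, had 388 to 451 CPM in D9-Cre-Bcl11b mice and 244 to 328 CPM in Cre-negative mice (log2 fold change 0.58, SE 0.09, edgeR adjusted p = 0.00206). Pcsk1n, whose product proSAAS is an inhibitor of a prohormone convertase, had 80.1 to 92.7 CPM in D9-Cre-Bcl11b mice and 64.1 to 69.5 CPM in Cre-negative mice (log2 fold change 0.38, SE 0.06, edgeR adjusted p = 0.00126). Tpst1, which sulfates tyrosines and belongs to the pair of enzymes that act on cholecystokinin, was lower, at 35.4 to 38.4 CPM in D9-Cre-Bcl11b mice and 49.3 to 54.9 CPM in Cre-negative mice (log2 fold change -0.51, SE 0.06, edgeR adjusted p = 1.91e-04). The convertase Pcsk2 did not overlap between groups (340 to 377 CPM in D9-Cre-Bcl11b mice and 291 to 316 CPM in Cre-negative mice) but missed the threshold with edgeR (log2 fold change 0.19, SE 0.05, adjusted p = 0.0250) and passed it with DESeq2 (adjusted p = 0.00385).

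Of the 7 peptide breakdown enzymes, all tested, 0 were higher and 0 lower by edgeR, and DESeq2 and limma-voom called 0 as well. By edgeR 4.87% of all genes tested were higher and 3.91% lower. At an unadjusted p under 0.05 the count was 1 higher, Thop1 (thimet oligopeptidase, log2 fold change 0.14, SE 0.06), and 0 lower. The share of all genes at that unadjusted level was not computed. Lnpep, the aminopeptidase that degrades oxytocin and vasopressin, had a log2 fold change of -0.10 (SE 0.07), Ece1 had -0.10 (SE 0.07) and Trhde, which inactivates thyrotropin-releasing hormone, had 0.42 (SE 0.37). The Trhde value was 0.17 without D9-Cre-Bcl11b mouse 4, 0.23 without Cre-negative mouse 1, 0.27 without Cre-negative mouse 3 and 0.97 without Cre-negative mouse 4, and 0.71 without mouse 4 of both groups, and it missed the threshold in each of these fits.

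Transcription factors that specify or serve vasopressin and oxytocin neurons in the hypothalamus were a list of 5 genes, of which 2 were tested. Arnt2, the partner of SIM1 that is also widely used in other neurons, rose to 246, 218, 243 and 230 CPM in D9-Cre-Bcl11b mice, against 156, 165, 160 and 188 CPM in Cre-negative mice (log2 fold change 0.49, SE 0.07, edgeR adjusted p = 6.96e-04). Pou3f2, another factor of these neurons, had 27.3 to 31.5 CPM in D9-Cre-Bcl11b mice and 26.1 to 33.0 CPM in Cre-negative mice (log2 fold change 0.021, SE 0.08), and its sign turned when D9-Cre-Bcl11b mouse 2 (-0.017) or Cre-negative mouse 4 (-0.014) was left out. Sim1 had 4 counts summed over each group, and Otp had 2 counts in D9-Cre-Bcl11b mice and 4 in Cre-negative mice. The 13 hypothalamic neuron markers summed to 4.36 to 5.55 CPM in D9-Cre-Bcl11b mice and 2.51 to 3.50 CPM in Cre-negative mice, of which Pomc made up most. Of these 13, 3 were tested and Pomc alone passed, as higher, where 4.87% of all genes tested were higher. The Pomc call was kept only without Cre-negative mouse 1 (edgeR adjusted p 0.0107 to 0.0266 without each other mouse). Hmx3 and Kiss1 were at 0 in all mice. The 8 transcription factors among the markers, summed after their values were seen, had 0.144 to 0.498 CPM in D9-Cre-Bcl11b mice and 0.0804 to 0.461 CPM in Cre-negative mice. Whether hypothalamic RNA had a part in the level of Avp was not tested.

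Other neuropeptide precursors were examined for comparison. Of 47 listed genes 26 were tested, and 3 were higher, 1 was lower and 22 did not pass, with a median log2 fold change of 0.12. The test called 4.87% of all genes higher and 3.91% lower. Galp, the galanin-like peptide precursor, had 94 counts over the 4 D9-Cre-Bcl11b mice (0.215 to 0.570 CPM) and 0 over the 4 Cre-negative mice. A count of 0 over that group allows up to 3 counts (0.0153 CPM), an interval of counting error only. Pomc, the precursor of the melanocortins and beta-endorphin, had 4.08, 3.58, 2.96 and 3.33 CPM in D9-Cre-Bcl11b mice and 2.27, 1.55, 1.85 and 2.14 CPM in Cre-negative mice (log2 fold change 0.84, SE 0.17, edgeR adjusted p = 0.00705). Npw, the neuropeptide W precursor, had 0.258 to 0.534 CPM in D9-Cre-Bcl11b mice and 0.0797 to 0.147 CPM in Cre-negative mice (log2 fold change 1.83, SE 0.38). Galp and Npw had fewer than 10 counts in every Cre-negative mouse. They passed the filter on low counts only through the D9-Cre-Bcl11b mice, so nothing is read from their calls. The count of 3 higher genes includes both, so nothing is read from that count either. Penk, the enkephalin precursor of indirect pathway MSNs, was lower, at 454 to 501 CPM in D9-Cre-Bcl11b mice and 549 to 625 CPM in Cre-negative mice (log2 fold change -0.33, SE 0.06, edgeR adjusted p = 0.00381). The call of Pomc was kept only without Cre-negative mouse 1 (adjusted p 0.0107 to 0.0266 without each other mouse), that of Npw was lost without each mouse (0.0110 to 0.0326), and that of Penk was lost without D9-Cre-Bcl11b mouse 3, Cre-negative mouse 2 or Cre-negative mouse 3 (0.0123 to 0.0174).

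The genes whose pattern over the 8 mice was most like that of Avp were found by the root mean square difference of centred log2 CPM among 16325 genes, as a description without a test. The closest was Clec18a, a C-type lectin gene, at 0.459 log2 units, with 7.59 to 11.3 CPM in D9-Cre-Bcl11b mice and 0.281 to 0.922 CPM in Cre-negative mice. It was followed by Gm8730 (0.507), a processed pseudogene that may share reads with its parent gene, by the orexin receptor Hcrtr1 (0.544), by Lbhd2 (0.562) and by Slc30a3 (0.570), which loads zinc into synaptic vesicles. In all 5 of these genes the highest Cre-negative value was that of mouse 4, as it was in Avp, at 0.440 CPM in Gm8730 to 3.64 CPM in Slc30a3. The genes were picked by likeness to Avp over these same mice, so nothing is read from this shared feature.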

How the data were processed

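Striatal RNA was depleted of ribosomal RNA and sequenced as paired-end reads. The authors made the deposited raw counts per gene: per the labels, reads were trimmed with Trim Galore 0.6.4 and aligned with STAR 2.7.2b to GRCm38.p6, and counted with featureCounts. The sources used here do not give its strand and multimapping settings. An rlog table by the authors was not used. All 8 count columns were assigned to mice by their names.

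Tests used edgeR 4.0.16 in R 4.3.3 after filterByExpr with a count minimum of 10 and a total minimum of 15 (TMM, quasi-likelihood test, no covariate, Benjamini-Hochberg over the 22173 genes left, adjusted p under 0.01, the level of the study's methods). Fold changes are D9-Cre-Bcl11b over Cre-negative, CPM values use TMM-scaled library sizes, and a prior count of 2 was added for log2 CPM. Gene locations come from GENCODE vM21 and promoters from RefSeq. Libraries of a group differed by 13.2 to 66.4 times the counting variance per gene, so none was a duplicate. With 4 mice per group, p-values measure the spread between mice. The script was tested on simulated data.

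The members and lists were chosen with earlier results of these data known. Named genes were all members, Bcl11b, the 4 tested genes of each list with the smallest p, the genes beside Avp and Oxt and any gene within 200 kb that passed, and the 5 genes most like Avp (mean 1 CPM or more); others are named as exceptions. Alternatives were DESeq2 1.42.0, limma-voom (limma 3.58.1), RLE size factors, library size alone, no filter, 1 CPM in 4 mice, the replicate number as a block, each mouse left out, and, added after the data were seen, both number 4 mice left out.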

Additional observations from a re-analysis of the deposited data

Results flagged for a closer look

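A sample far from the rest of its group of 4 was looked for in 108 group and measure pairs, of which 8 stood apart, where chance gives about 1 in 20. Cre-negative mouse 4 had 35.1 CPM of Cck, against 7.72 to 8.70 CPM in the other Cre-negative mice, and a cortical marker sum of 192 CPM, against 72.5 to 82.2 CPM. The same mouse had 3.02 CPM of Lbhd2, against 0.478 to 0.844 CPM. D9-Cre-Bcl11b mouse 4 had 377 CPM of Pcsk2, against 340 to 342 CPM in the other D9-Cre-Bcl11b mice, and 1.02 CPM of Slc4a11, against 0.847 to 0.869 CPM. D9-Cre-Bcl11b mouse 2 had 21.2 CPM of Crhr1, against 26.9 to 27.4 CPM. Cre-negative mouse 1 had 48.5 CPM of Mrps26, against 45.9 to 46.3 CPM, and 71.5 CPM of Vps16, against 64.7 to 65.7 CPM.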

How the results depend on the processing

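The peptide genes were chosen on this contrast, so that their calls say nothing of stability. The Cck log2 fold change was 0.94 with the replicate block and 1.12 without both number 4 mice. The shared replicate numbers did not pair the mice (correlations of the deviations of same-numbered mice -0.234 to 0.0623). The replicate block also left 1 processing gene higher (Pam was lost, adjusted p = 0.0103) and 1 lower, 0 other precursors higher and 0 lower, 1 neighbour of Avp higher, and a Crh log2 fold change of 0.034. The number of other precursors called higher was 1 with the filter of 1 CPM in 4 mice, 1 without both number 4 mice, and 1 to 2 with each mouse left out, and that called lower was 0 without both number 4 mice and 0 to 1 with each mouse left out. Neighbours of Avp called higher numbered 1 with limma-voom, RLE size factors, library size alone, no filter, and without both number 4 mice, and 1 to 2 with each mouse left out, against 3 with DESeq2 and with the filter of 1 CPM in 4 mice. Directions turned for Oxt (-1.28 to 0.0363 with each mouse left out), Crh (-0.567 to 0.545) and Pou3f2 (-0.0165 to 0.0996, and -0.00409 without both number 4 mice), all log2 fold changes. Of 35 named genes tested, 13 lost or gained a call or turned direction under at least 1 alternative. Over all genes, 1079 were higher and 868 lower, against 1747 and 1566 with DESeq2, 673 and 492 with the replicate block, and 631 to 1160 and 471 to 906 with each mouse left out. The cause of these changes was not tested. Hcrt, Pmch and Gal are limited by depth.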
